A study of Rattus norvegicus with 10 samples.

Results

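The genes described here copy and maintain DNA, and comprise 50 listed genes of DNA replication, nucleotide synthesis and repair. They were chosen as a list of gene symbols, and each gene was read from the probe set that carried its symbol alone and had the highest mean log2 signal over all 10 arrays. Of the 50 genes, 47 had such a probe set, of 14217 genes with one in the whole table, and 42 were bright enough to be tested, of 10596 in all. Orc1, Brca1, Exo1, Tipin and Hells were too dim, and Cdc6, Gins2 and Rrm2 were not analysed here.

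The samples were left ventricles of rats weighing 250 to 300 g, taken 3 days after gene transfer, and 9 of the 10 carry labels of male Sprague-Dawley animals. One group of 5 had been injected with MKK3bE, an always-active version of the upstream kinase MKK3, and wild-type p38α, and is called p38 below. The other group of 5 had been injected with LacZ, the bacterial β-galactosidase gene, and is called LacZ. The comparison asked which left ventricular transcripts differed between these treatments. The vector, the promoter driving the transgenes and the share of cells they reached are not given in the sources used here, and neither is whether each array came from a separate animal, so the p-values speak of the spread among these 10 samples.

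Before a cell copies its DNA, the origin recognition complex, Cdc6 and Cdt1 load rings of the Mcm2 to Mcm7 helicase onto origins, and geminin binds Cdt1 to stop loading from being repeated. Cdc45 and the GINS complex then activate the helicase, primase and DNA polymerase α start each strand, and polymerases δ and ε extend it on the PCNA clamp. Many of these genes are transcribed under E2F factors as cells enter S phase. Adult cardiac muscle cells rarely copy their DNA, whereas the other cell types of the ventricle can divide.

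In p38 ventricles, 17 of the 42 tested genes, or 40.5%, were higher than in LacZ ventricles and 0 were lower, where 11.6% of all tested genes were higher and 6.23% lower. A gene was called when its adjusted p in limma, adjusted by Benjamini-Hochberg over 18625 probe sets, was under 0.05. The log2 fold change was positive for 40 of the 42, with a median of 0.42 and a range of -0.19 to 1.37, beside a median of 0.00 for all tested genes. The calls fell on the helicase with its loading and activating factors (8 of 13 genes) and on the synthesis machinery (8 of 15 genes). E2f1 was the 1 gene called among 5 genes of E2F transcription, histone mRNA and chromatin, and 0 of 5 nucleotide synthesis genes and 0 of 4 checkpoint and repair genes passed. At an unadjusted limma p under 0.05 those last 2 groups had 3 genes and 1 gene, and all 42 genes had 26, none of them lower in p38. Of all 10596 tested genes, 3805 were under that threshold, in either direction.

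The number of calls depended on single arrays, for these genes as for the whole table. Among the 17 genes, Prim2, Mcm6, Prim1, Gmnn, Mcm3 and Pcna passed without any 1 array. The count was 6, 7 and 7 without p38 replicates 2, 4 and 5, and 8, 9, 6 and 11 without LacZ replicates 1, 2, 3 and 4. It was 10 with the signals as deposited. Over all 18625 probe sets the higher count was 1601, and it was 913, 693 and 965 without p38 replicates 2, 4 and 5. Without LacZ replicates 1, 2, 3 and 4 it was 847, 923, 750 and 989, and as deposited 956, so calls also fell over all probe sets. Whether they fell as far there as for the replication genes was not tested. In every one of these settings 0 of the 42 genes were lower.

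The promoters of the 4 genes with the smallest p are shown because E2F words were searched in them. They come from RefSeq on build GRCr8, each from 250 bases before to 50 bases after the gene's start, written 5′ to 3′ along the gene's strand, with E2F words in capitals. Prim2 lies at chr9:43400405-43400704 (minus strand), Mcm6 at chr13:42404303-42404602 (minus strand), Prim1 at chr7:1031212-1031511 (plus strand) and Gmnn at chr17:40729584-40729883 (plus strand).
Prim2: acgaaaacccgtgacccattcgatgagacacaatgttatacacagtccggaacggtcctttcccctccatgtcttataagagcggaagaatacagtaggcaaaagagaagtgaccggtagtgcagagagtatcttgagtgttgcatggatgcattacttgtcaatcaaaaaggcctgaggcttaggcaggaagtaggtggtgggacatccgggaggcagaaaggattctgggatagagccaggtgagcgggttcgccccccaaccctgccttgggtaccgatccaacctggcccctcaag
Mcm6: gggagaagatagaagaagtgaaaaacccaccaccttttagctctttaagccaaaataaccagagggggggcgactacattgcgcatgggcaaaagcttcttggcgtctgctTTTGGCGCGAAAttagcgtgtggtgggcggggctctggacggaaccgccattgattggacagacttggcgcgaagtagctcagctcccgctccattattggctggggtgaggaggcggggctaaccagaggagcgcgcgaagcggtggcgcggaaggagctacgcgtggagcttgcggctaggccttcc
Prim1: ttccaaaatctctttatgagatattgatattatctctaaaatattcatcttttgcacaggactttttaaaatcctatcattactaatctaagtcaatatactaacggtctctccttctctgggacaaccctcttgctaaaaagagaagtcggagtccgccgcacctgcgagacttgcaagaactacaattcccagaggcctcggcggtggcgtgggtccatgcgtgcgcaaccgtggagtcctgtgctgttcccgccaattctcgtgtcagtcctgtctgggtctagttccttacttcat
Gmnn: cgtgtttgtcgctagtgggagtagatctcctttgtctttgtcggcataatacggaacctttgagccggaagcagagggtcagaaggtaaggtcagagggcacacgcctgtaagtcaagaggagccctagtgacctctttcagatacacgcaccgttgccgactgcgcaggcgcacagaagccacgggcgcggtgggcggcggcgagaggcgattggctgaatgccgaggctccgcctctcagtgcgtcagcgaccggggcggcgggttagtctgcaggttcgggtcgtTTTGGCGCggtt

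The E2F words searched were TTTCGCGC, TTTGGCGC, TTTCCCGC and TTTGCCGC, each on both strands. Counted from 0 at the first transcribed base, the Mcm6 window held one from -139 to -132 on the gene's strand and another from -135 to -128 on the opposite strand, which overlap. The Gmnn window held one from 38 to 45, downstream of its start. The windows of Prim2 and Prim1 held none of these letters. A promoter entry was found for 43 of the 47 genes, and 22 of the 43, or 51.2%, held at least 1 E2F word, against 4.10% of 8827 tested genes and 2.25% of all 27457 promoters of the same length. The share was 7 of 15 among the genes that were higher and 13 of 24 among those tested that did not pass.

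The NF-Y word CCAAT, which can overlap an E2F word, was found on either strand in 24 of the 43 windows, or 55.8%, against 37.97% of tested genes and 37.7% of all promoters. It was in 11 of the 15 windows of higher genes and in 11 of the 24 of those that did not pass. Mcm6 had it from -86 to -82 and from -43 to -39, Gmnn from -39 to -35 and Prim1 from 5 to 9. The CHR word TTTGAA, known from genes of late cell cycle phases, was in 6 windows, or 14.0%, against 11.2% of tested genes and 18.1% of all promoters. None of the 15 windows of higher genes held it. The median GC content was 59.7% in the 43 windows and 61.0% in those of tested genes.

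**Figure D1:**
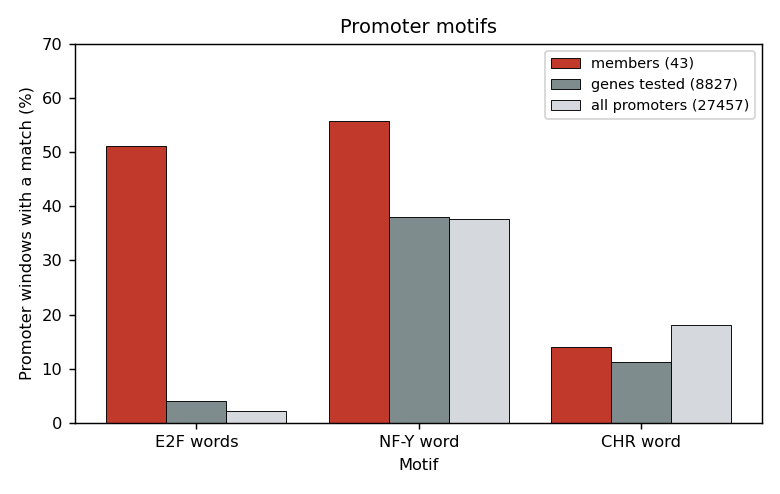
Percent of promoter windows (y axis) that hold an E2F, NF-Y or CHR word (x axis) among the 43 genes described here, 8827 tested genes and all 27457 promoters; bars are shares with no error. The E2F share stands at 51.2% for the genes described here, beside 4.10% and 2.25%.

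The helicase genes held the 2 largest fold changes of all 42. Mcm6, a subunit of the helicase ring, had normalized log2 signals of 7.50, 8.24, 7.53, 8.56 and 8.54 in the p38 arrays, against 6.69, 6.46, 6.78, 6.39 and 7.21 in the LacZ arrays. Every p38 array lay above every LacZ array, with p38 replicates 4 and 5 highest and LacZ replicate 5 the highest of its group. Its signal was 2.58-fold higher in p38 (log2 fold change 1.37 ± 0.23 SE, limma adjusted p = 0.00774, n = 5 each). Fold changes here are on the log2(signal + 16) scale, which understates the change of dim genes.

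Mcm3, another ring subunit, had log2 signals of 6.75, 7.54, 7.13, 8.34 and 8.18 in p38 and 6.28, 6.13, 6.30, 6.51 and 6.85 in LacZ. The groups overlapped only where p38 replicate 1 lay below LacZ replicate 5. The rise was 2.26-fold (log2 fold change 1.17 ± 0.27, limma adjusted p = 0.0162). Mcm4 had log2 signals of 7.46, 8.32, 7.88, 8.60 and 8.73 in p38, against 7.0, 7.38, 7.42, 7.31 and 7.80 in LacZ. Here too p38 replicate 1 was the lowest of its group and LacZ replicate 5 the highest of the other. Mcm4 was 1.76-fold higher (log2 fold change 0.82 ± 0.22, limma adjusted p = 0.0275).

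Mcm7 had log2 signals of 8.82, 9.25, 9.14, 9.23 and 9.13 in p38 and 8.79, 8.66, 8.58, 8.72 and 9.04 in LacZ. Its p38 replicate 1 lay within the LacZ range, while the other 4 p38 arrays lay above it. The difference passed at 1.28-fold (log2 fold change 0.36 ± 0.11, limma adjusted p = 0.0438), and it did not pass when any of p38 replicates 2 to 5 or LacZ replicates 1 to 4 was left out.

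The other ring subunits, Mcm2 and Mcm5, did not pass. Mcm2 had log2 signals of 7.47, 7.97, 7.84, 8.29 and 8.56 in p38, against 7.58, 7.42, 7.57, 7.39 and 7.92 in LacZ, a log2 fold change of 0.45 ± 0.18 (limma adjusted p = 0.100). For Mcm5 the log2 signals were 7.58, 7.66, 7.52, 8.13 and 8.10 in p38 and 7.43, 7.53, 7.51, 7.41 and 7.70 in LacZ, with a log2 fold change of 0.28 ± 0.13 (limma adjusted p = 0.164). In both genes p38 replicates 4 and 5 stood clear of the LacZ arrays and p38 replicate 1 did not. Mcm10, an initiation factor outside the ring, had log2 signals of 6.57, 6.57, 6.95, 6.57 and 7.03 in p38, against 6.75, 6.98, 6.82, 6.66 and 6.61 in LacZ. The Mcm10 values in p38 lay on both sides of the LacZ range, replicates 1, 2 and 4 below it and replicate 5 above it (log2 fold change -0.03 ± 0.13, limma adjusted p = 0.908). A second Mcm10 probe set was too dim to test (log2 difference 0.30).

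**Figure D2:**
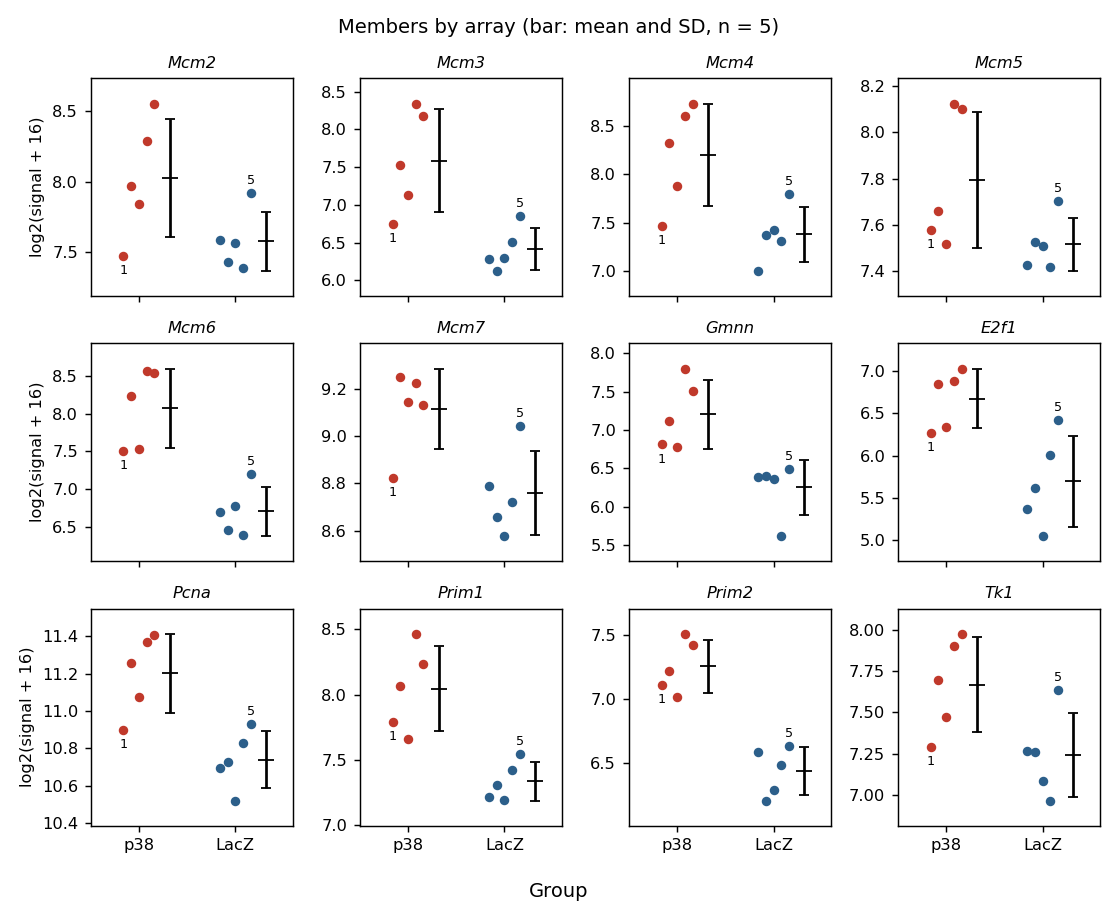
Normalized log2(signal + 16) (y axis) of 12 genes on each array, p38 left and LacZ right in each panel (x axis); points are arrays 1 to 5 in order, bars the mean and SD (n = 5), and p38 replicate 1 and LacZ replicate 5 are numbered. In Mcm6, Gmnn, Prim1 and Prim2 all p38 points lie above all LacZ points, and in the other panels p38 replicate 1 lies below LacZ replicate 5.

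Of the factors that load and activate the helicase, Gmnn (geminin) had log2 signals of 6.81, 7.12, 6.78, 7.80 and 7.51 in p38 and 6.38, 6.40, 6.35, 5.62 and 6.49 in LacZ. No LacZ array reached the lowest p38 array, and LacZ replicate 4 stood apart below its group. Gmnn was 1.94-fold higher (log2 fold change 0.95 ± 0.22, limma adjusted p = 0.0161) and passed at 0.80 ± 0.20 without LacZ replicate 4 (limma adjusted p = 0.0346). A second probe set was too dim to test and overlapped between groups (log2 difference 0.20). With both probe sets averaged, Gmnn stood at 0.58 (limma adjusted p = 0.0337). Its partner Cdt1, which loads the helicase, overlapped between groups, at log2 signals of 6.25 to 7.50 in p38 and 5.75 to 6.78 in LacZ, and did not pass (log2 fold change 0.54 ± 0.27, limma adjusted p = 0.182).

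Orc6, a subunit of the origin recognition complex, was 1.67-fold higher in p38 (log2 fold change 0.74 ± 0.19, limma adjusted p = 0.0215), with 4 of 5 p38 arrays above all LacZ arrays. Its other probe sets were too dim to test and overlapped between groups (log2 differences 0.44 and 1.03). Gins1, of the GINS complex, was 1.61-fold higher (0.69 ± 0.20 on the log2 scale, limma adjusted p = 0.0372), while Gins3 of the same complex had a log2 fold change of 0.12 ± 0.18 (limma adjusted p = 0.683). Cdc45, the third part of the active helicase, had log2 signals of 7.56 to 7.92 in p38 and 6.91 to 7.54 in LacZ, which did not overlap, and was 1.34-fold higher (limma adjusted p = 0.0387). A second Cdc45 probe set was also higher (log2 fold change 0.48, limma adjusted p = 0.0479), another did not pass (0.36, limma adjusted p = 0.111) and 1 was too dim. Orc1, also of the origin recognition complex, was too dim for a test, although its log2 signals of 4.73 to 5.19 in p38 all lay above those of 4.05 to 4.50 in LacZ.

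**Figure D3:**
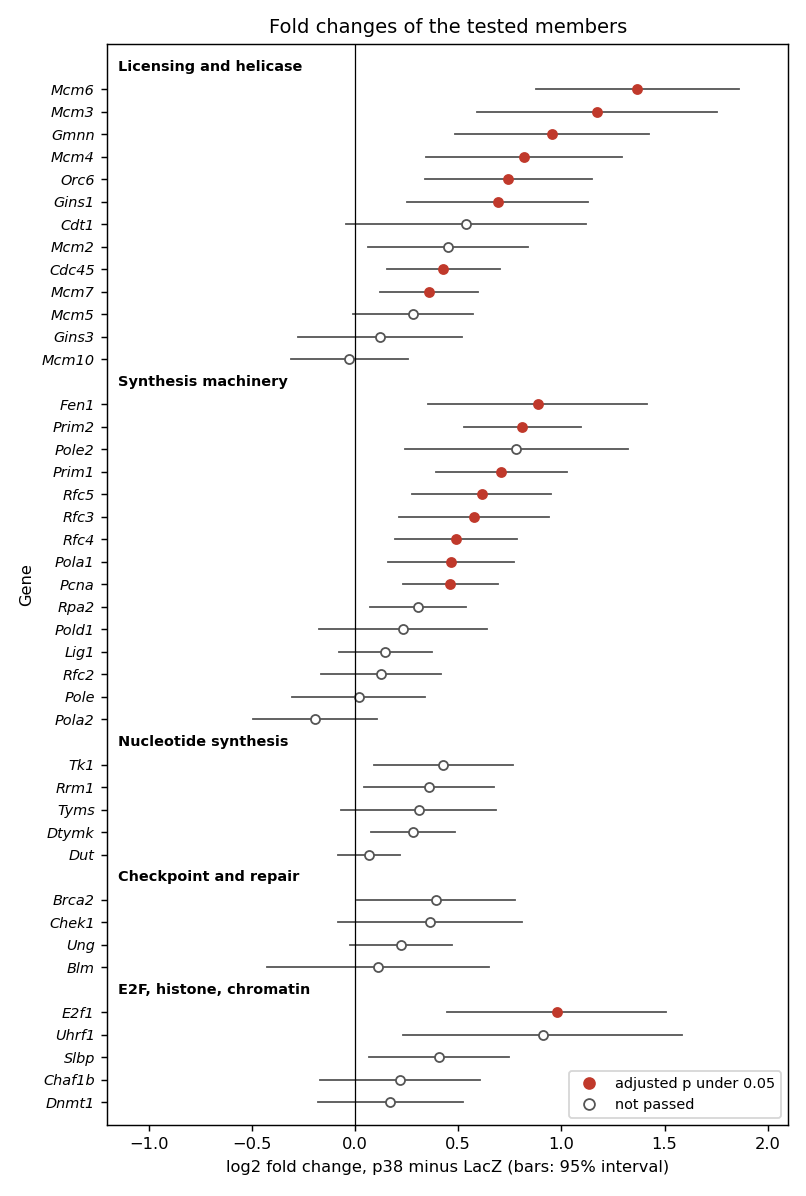
Log2 fold change of p38 minus LacZ (x axis) for the 42 tested genes by role (y axis), with 95% intervals from limma (5 arrays per group); filled points had an adjusted p under 0.05. The 17 filled points all lie right of 0, from 0.36 for Mcm7 to 1.37 for Mcm6.

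In the synthesis machinery, both subunits of primase, which lays down the RNA primers, were higher with no overlap between groups. Prim2, the larger subunit, had the smallest p of the 42 genes, with log2 signals of 7.11, 7.22, 7.01, 7.51 and 7.42 in p38, against 6.59, 6.21, 6.29, 6.49 and 6.63 in LacZ. The lowest p38 array still exceeded the highest LacZ array, and the signal was 1.75-fold higher (log2 fold change 0.81 ± 0.13, limma adjusted p = 0.00732). Prim1, the catalytic subunit, had log2 signals of 7.79, 8.07, 7.66, 8.47 and 8.24 in p38 and 7.21, 7.31, 7.19, 7.42 and 7.55 in LacZ. The Prim1 groups did not overlap either, at 1.63-fold (log2 fold change 0.71 ± 0.15, limma adjusted p = 0.0123). Over the 42 genes this separation was seen for 6, namely Mcm6, Gmnn, Cdc45, Rfc5, Prim1 and Prim2, where 7.4% of all tested genes had every p38 array above every LacZ array.

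The polymerase genes differed among themselves. Pola1, the catalytic subunit of polymerase α, was 1.38-fold higher (log2 fold change 0.46 ± 0.14, limma adjusted p = 0.0426), with 2 of 5 p38 arrays above all LacZ arrays. Pola2, its accessory subunit, had log2 signals of 8.64 to 9.39 in p38 and 9.08 to 9.52 in LacZ, the most negative log2 fold change of the 42 (-0.19 ± 0.14, limma adjusted p = 0.349). Pole, the catalytic subunit of polymerase ε, had log2 signals of 6.03, 6.26, 6.75, 6.55 and 6.57 in p38 and 6.46, 6.35, 6.26, 6.36 and 6.63 in LacZ. For Pole, p38 replicates 1 and 2 lay below the LacZ range and p38 replicate 3 above it, with a log2 fold change of 0.02 ± 0.15 (limma adjusted p = 0.950). Pole2, an accessory subunit of the same enzyme, lay just short of the threshold at 0.78 ± 0.25 (limma adjusted p = 0.0505), and Pold1, the catalytic subunit of polymerase δ, had 0.23 ± 0.19 (limma adjusted p = 0.412).

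Pcna, the sliding clamp, had log2 signals of 10.90, 11.26, 11.08, 11.37 and 11.41 in p38, against 10.69, 10.73, 10.52, 10.83 and 10.93 in LacZ. The groups touched only at p38 replicate 1 and LacZ replicate 5, and Pcna was 1.38-fold higher (log2 fold change 0.46 ± 0.11, limma adjusted p = 0.0163). With the signals as deposited its limma adjusted p was 0.0550. The clamp is loaded by replication factor C, and 3 of the 4 subunits on the list were higher. Rfc5 rose 1.53-fold (limma adjusted p = 0.0224), and its second probe set, at a log2 fold change of 0.73 ± 0.16 (limma adjusted p = 0.0145), also had every p38 array above every LacZ array. Rfc3 rose 1.49-fold (limma adjusted p = 0.0372) and Rfc4 1.40-fold (limma adjusted p = 0.0313), while Rfc2 had a log2 fold change of 0.13 (limma adjusted p = 0.539).

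Fen1, which trims the flaps between Okazaki fragments, was 1.85-fold higher (log2 fold change 0.88 ± 0.25, limma adjusted p = 0.0304). Its log2 signal in p38 replicate 1, 5.88, lay within the LacZ range of 5.67 to 6.39, and the other p38 arrays ran from 6.82 to 7.32. Lig1, which seals those fragments, did not pass (log2 fold change 0.15, limma adjusted p = 0.347), and its second probe set did not pass either (0.36, limma adjusted p = 0.239). Rpa2, which coats single-stranded DNA, had 4 of 5 p38 arrays above all LacZ arrays and a log2 fold change of 0.31 ± 0.11 (limma adjusted p = 0.0681).

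**Figure D4:**
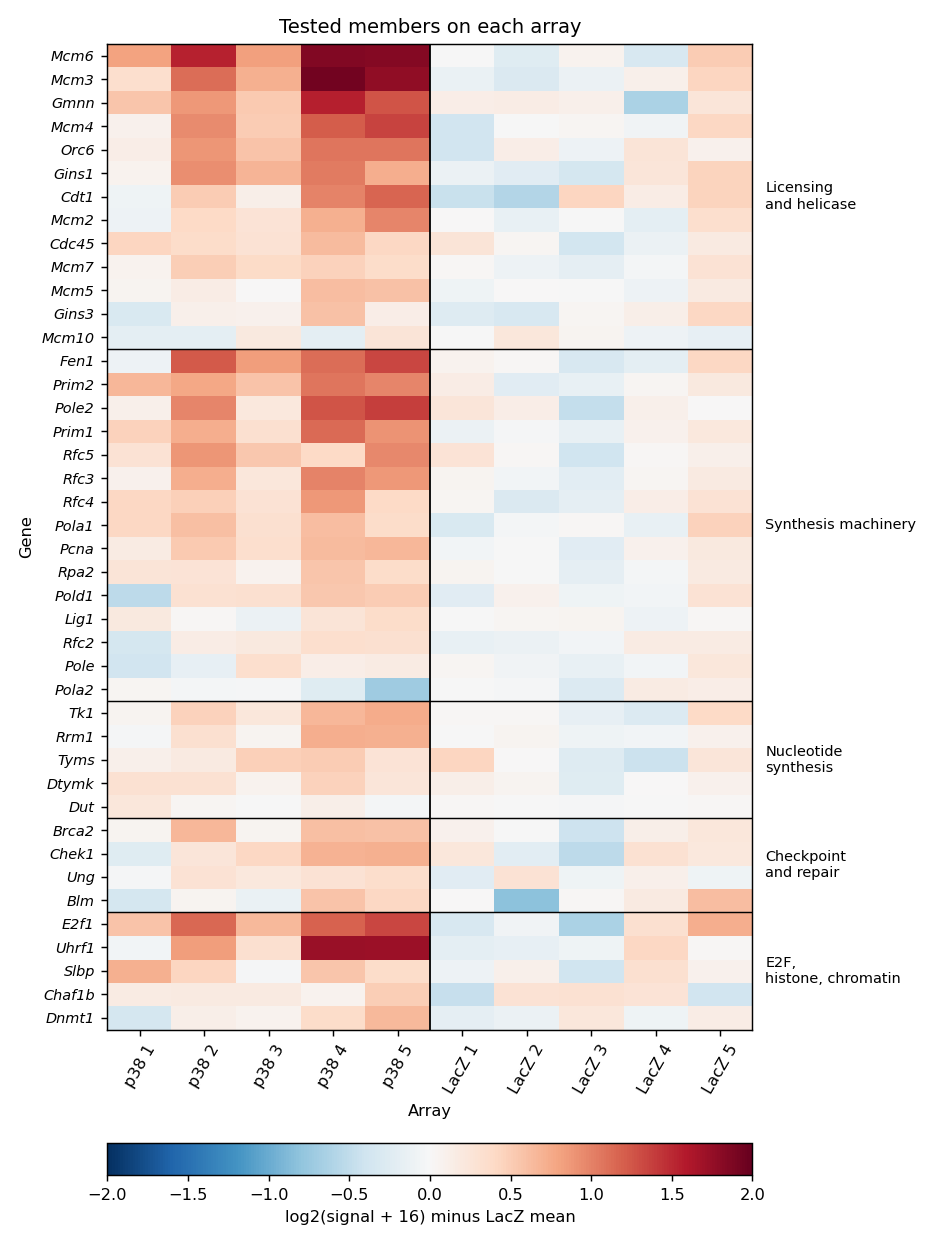
Log2(signal + 16) minus the gene's LacZ mean (colour) for the 42 tested genes (y axis, by role) on each array (x axis), p38 left and LacZ right of the line. The p38 replicates 4 and 5 carry the darkest red, p38 replicate 1 is pale or blue in most rows, and LacZ replicate 5 is the reddest LacZ array.

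None of the 5 tested nucleotide synthesis genes passed, although all 5 had positive log2 fold changes (median 0.31). Tk1, the cytosolic thymidine kinase of S phase, had log2 signals of 7.29, 7.70, 7.47, 7.90 and 7.98 in p38, against 7.26, 7.26, 7.08, 6.96 and 7.64 in LacZ. Its LacZ replicate 5 lay above p38 replicates 1 and 3, and the log2 fold change was 0.43 ± 0.16 (limma adjusted p = 0.0763). A second Tk1 probe set gave 0.39 (limma adjusted p = 0.0847). Dtymk, thymidylate kinase, had log2 signals of 9.76, 9.75, 9.52, 9.90 and 9.69 in p38 and 9.55, 9.49, 9.20, 9.45 and 9.53 in LacZ. Only p38 replicate 3 overlapped the LacZ arrays (log2 fold change 0.28 ± 0.09, limma adjusted p = 0.0596). A second Dtymk probe set gave 0.24 (limma adjusted p = 0.110).

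Rrm1, the large subunit of ribonucleotide reductase, had log2 signals of 8.53, 8.89, 8.61, 9.29 and 9.28 in p38 and 8.55, 8.62, 8.47, 8.50 and 8.65 in LacZ. The LacZ arrays were tightly grouped, and p38 replicates 1 and 3 lay among them (log2 fold change 0.36 ± 0.15, limma adjusted p = 0.105). Tyms, thymidylate synthase, had log2 signals of 6.09, 6.17, 6.46, 6.50 and 6.27 in p38, against 6.42, 6.0, 5.73, 5.57 and 6.23 in LacZ, and most p38 arrays lay within the LacZ range (0.31 ± 0.17 on the log2 scale, limma adjusted p = 0.234). Dut, which removes dUTP, had log2 signals of 10.39, 10.21, 10.16, 10.29 and 10.12 in p38 and 10.18, 10.16, 10.14, 10.16 and 10.19 in LacZ. Its log2 fold change of 0.07 ± 0.07 had a 95% interval of -0.08 to 0.22 (limma adjusted p = 0.533). A second Dut probe set gave 0.05 (limma adjusted p = 0.877).

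Checkpoint and repair genes likewise gave no call. Chek1, the checkpoint kinase of S phase, had log2 signals of 6.19, 6.67, 6.85, 7.13 and 7.13 in p38, against 6.65, 6.22, 5.90, 6.73 and 6.65 in LacZ (log2 fold change 0.36 ± 0.21, limma adjusted p = 0.239). Brca2, which loads the recombinase at DNA breaks, had 5.89, 6.50, 5.89, 6.43 and 6.42 in p38 and 5.92, 5.82, 5.41, 5.95 and 6.06 in LacZ as log2 signals (0.39 ± 0.18, limma adjusted p = 0.143). In both genes 3 p38 arrays lay above every LacZ array and the groups overlapped. Ung, which removes uracil from DNA, had log2 signals of 7.70, 8.02, 7.94, 8.02 and 8.08 in p38 and 7.50, 8.01, 7.65, 7.83 and 7.65 in LacZ (0.22 ± 0.12, limma adjusted p = 0.193). Blm, a helicase of recombination, had 5.66, 6.06, 5.88, 6.57 and 6.42 in p38 and 6.01, 5.18, 6.04, 6.19 and 6.62 in LacZ. No p38 array exceeded the highest Blm value in LacZ (log2 fold change 0.11 ± 0.25, limma adjusted p = 0.787).

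Exo1, Brca1 and Tipin, also of this role, were too dim to test and are described only by their log2 signals. Exo1, a nuclease of mismatch repair and recombination, had 4.99 to 6.71 in p38 and 4.58 to 5.35 in LacZ. Brca1 had 5.26 to 5.88 in p38 and 4.84 to 5.55 in LacZ, and the fork protection gene Tipin had 4.66 to 5.71 in p38 and 4.69 to 5.30 in LacZ. All 3 overlapped between groups.

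E2f1, a transcription factor of the E2F family, had log2 signals of 6.27, 6.85, 6.34, 6.88 and 7.03 in p38, against 5.37, 5.62, 5.06, 6.01 and 6.42 in LacZ. The p38 arrays all lay above the brightness limit of 5.80, while 3 of the 5 LacZ arrays lay under it. LacZ replicate 5 overlapped p38 replicates 1 and 3. E2f1 was at least 1.63-fold higher in p38 (fitted log2 fold change 0.98 ± 0.25, limma adjusted p = 0.0215), with each LacZ array under the limit set to it. The largest limma adjusted p with 1 array left out was 0.0586.

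Uhrf1, which brings the maintenance methyltransferase to newly copied DNA, had log2 signals of 5.52, 6.41, 5.90, 7.31 and 7.29 in p38, against 5.38, 5.42, 5.48, 6.0 and 5.60 in LacZ. The p38 arrays were widely spread (SD 0.81 on the log2 scale, against 0.25 in LacZ), and the gene did not pass (fitted log2 fold change 0.91 ± 0.31, limma adjusted p = 0.0638). Slbp, which binds the stem-loop of histone mRNAs, had 7.88, 7.60, 7.14, 7.72 and 7.53 in p38 and 7.07, 7.26, 6.77, 7.49 and 7.25 in LacZ as log2 signals, with a log2 fold change of 0.41 ± 0.16 (limma adjusted p = 0.0905). Only p38 replicate 3 lay within the LacZ range of Slbp. The other Slbp probe sets were too dim to test (log2 differences 0.05 and -0.14). With all its probe sets averaged, Slbp stood at 0.105 (limma adjusted p = 0.621). Dnmt1, the maintenance methyltransferase itself, had log2 signals of 7.25, 7.72, 7.68, 7.98 and 8.26 in p38 and 7.42, 7.50, 7.84, 7.53 and 7.76 in LacZ (log2 fold change 0.17 ± 0.16, limma adjusted p = 0.490). Chaf1b, of the histone chaperone CAF-1, had a log2 fold change of 0.22 (limma adjusted p = 0.417), and Hells, a chromatin remodeller, was too dim, at log2 signals of 5.10 to 6.44 in p38 and 4.91 to 5.41 in LacZ.

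The arrays of a group differed in the level of many of the 42 genes. Their mean log2 signal, set against the LacZ mean of each gene, was 0.11, 0.50, 0.29, 0.73 and 0.70 in p38 replicates 1 to 5, and -0.05, -0.06, -0.13, 0.02 and 0.22 in LacZ replicates 1 to 5. The p38 replicate 1 thus lay below LacZ replicate 5. It was the lowest p38 array in 26 of the 42 genes, or 61.9%, against 26.9% of all tested genes, although in Pola2, Dut and Slbp it was the highest. LacZ replicate 5 was the highest LacZ array in 27 of the 42, or 64.3%, against 23.5% of all tested genes. The SD between arrays was larger in p38 than in LacZ for 32 of the 42 genes and for 7387 of all 10596 tested genes, with medians of 0.309 in p38 and 0.246 in LacZ on the log2 scale, where all tested genes had 0.200 in p38 and 0.143 in LacZ.

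These differences ran with a technical label, but in opposite directions in p38 and LacZ. The experiment files give the fluidics status as Started for p38 replicates 1, 2 and 3 and LacZ replicate 5, and as Completed for p38 replicates 4 and 5 and LacZ replicates 1 to 4. In p38 the Started arrays had the lower means (0.11, 0.50 and 0.29, against 0.73 and 0.70). In LacZ the Started array had the highest mean (0.22, against -0.13 to 0.02). Among the Completed arrays, 40 of the 42 genes were positive with a median log2 difference of 0.67. There limma called 31 genes higher, against 20.8% of all tested genes, and 1 lower, Pola2, against 20.5%. This split was added after seeing the data. It keeps the p38 arrays with the highest means and leaves out the LacZ array with the highest mean. The larger difference among Completed arrays therefore followed from which arrays were kept. Among the Started arrays, where LacZ has 1 array, 29 genes were positive and 13 negative with a median of 0.08, and limma called 0 genes in either direction, with 1 gene at an unadjusted p under 0.05. That fit called 2 probe sets higher and 3 lower of all 18625, so its count of 0 says nothing about the replication genes.

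A limma fit of the difference between the 2 status groups, Started minus Completed, was negative for 38 of the 42 genes with a median of -0.68. It passed for 5 genes, against 5.13% of all tested genes, and these were Mcm2, Mcm3, Mcm4, Mcm5 and Mcm6 (-1.09, -1.67, -1.30, -0.76 and -1.41 on the log2 scale, adjusted p = 0.0369, 0.0230, 0.04998, 0.0493 and 0.0366). This fit rests on LacZ replicate 5 as the only Started LacZ array, so the status and that one array cannot be told apart. It was also added after seeing the data, and its mostly negative sign follows from the same array means. With status as a block in the fit of all 10 arrays, 16 genes were higher, of which 13 were among the 17. Mcm7, Cdc45, Gins1 and Pola1 lost their call there (limma adjusted p = 0.0743, 0.0510, 0.0528 and 0.0868), and Orc6, Rfc5 and Pola1 lost it in a fit blocked on fluidics module (0.0512, 0.0536 and 0.0599). Within fluidics modules 1 to 4, each with 2 or 3 arrays, 40, 37, 37 and 32 of the 42 genes were positive, with medians of 0.53, 0.42, 0.63 and 0.21.

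Genes of mitosis and markers of several other cell types differed between the same arrays. For the 23 tested mitosis genes, of 30 listed, the mean log2 signal against LacZ was 0.59, 1.22, 0.77, 1.66 and 1.74 in p38 and -0.07, -0.33, -0.09, -0.17 and 0.66 in LacZ. Of these, 19 passed as higher, among them Mki67, Top2a and Cdk1, where 11.6% of all tested genes were higher. The median log2 fold change of the 23 was 1.09. For 17 of 18 macrophage markers the mean was 0.18, 0.85, 0.61, 1.32 and 1.32 in p38 and -0.18, -0.12, 0.02, -0.14 and 0.41 in LacZ, and 14 were higher, with a median log2 fold change of 0.74. Their mean level ran from 9.10 to 10.24 in p38 and from 8.74 to 9.33 in LacZ on the log2 scale, so macrophage RNA was measured in both groups, and Itgam was too dim. In both lists, as in the replication genes, p38 replicates 4 and 5 were highest and LacZ replicate 5 stood above the other LacZ arrays.

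The 11 measured cardiomyocyte markers were bright, with mean levels of 13.44 to 13.54 in p38 and 13.55 to 13.59 in LacZ on the log2 scale. Of these, 2 were lower in p38, Actn2 and Ryr2, where 6.23% of all tested genes were lower. Where 3805 of all 10596 tested genes had an unadjusted limma p under 0.05, so did 3 of 10 fibroblast markers, which gave 0 calls. Their mean log2 signal against LacZ was -0.22, 0.14, 0.24, 0.27 and 0.61 in p38 and 0.03, -0.24, 0.05, -0.14 and 0.31 in LacZ, so p38 replicate 1 was again the lowest and LacZ replicate 5 the highest of its group. For the 3 neutrophil markers it was 0.71, 1.43, 0.42, 1.53 and 0.74 in p38 and -0.30, -0.12, -0.81, 0.13 and 1.09 in LacZ, where LacZ replicate 5 was highest as well. Other lists differed. LacZ replicate 5 lay below LacZ replicate 3 for T and NK cell markers (0.07 against 0.14). It lay below LacZ replicate 2 for smooth muscle markers (0.05 against 0.13). For endothelial (-0.07) and cardiomyocyte markers (-0.02) it was the lowest LacZ array. Beside 11.6% of all tested genes higher and 6.23% lower, T and NK cell markers gave 1 higher of 10 (Cd8a). Neutrophil markers gave 1 higher of 3 (Lcn2) and endothelial markers 2 lower of 8 (Kdr and Tie1). Smooth muscle markers gave 2 higher (Tagln and Cnn1) and 1 lower (Myh11) of 7. The 1 B cell marker bright enough to test did not pass, and LacZ replicate 5 was its highest LacZ array. The part of cell composition in the rise of the replication genes was not tested, and in whole ventricle a different number of cells of a type and a different amount of RNA per cell cannot be told apart. The arrays carry a pair of controls of RNA integrity. The GAPDH 3′ over 5′ signal ratio was 1.33 to 1.57 in p38 and 1.24 to 1.68 in LacZ, and the hexokinase ratio 5.68 to 38.6 in p38 and 4.77 to 13.8 in LacZ, whose part in the results was not tested.

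**Figure D5:**
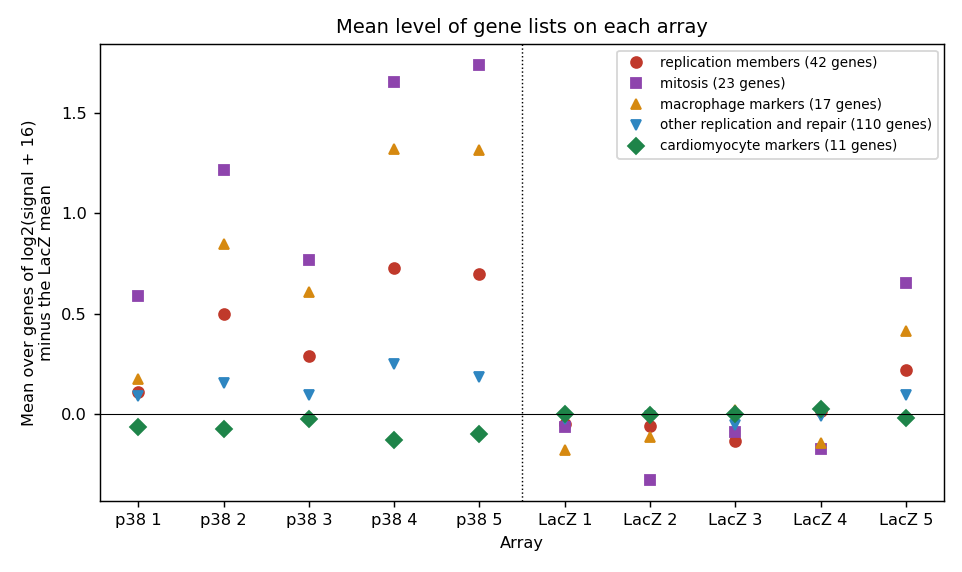
Mean over genes of log2(signal + 16) minus the LacZ mean (y axis) for the 42 replication genes, 23 mitosis genes, 17 macrophage markers, 110 other replication and repair genes and 11 cardiomyocyte markers on each array (x axis), p38 left and LacZ right of the dotted line. The first 3 lists are highest in p38 replicates 4 and 5 and rise in LacZ replicate 5. The 110 other genes do the same at a smaller size (0.25, 0.19 and 0.09), while the cardiomyocyte markers stay near 0.

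Other genes of these pathways, on a list of 153 that shares no gene with the 50, were read in the same way. Of all tested genes in the whole table, 11.6% were higher in p38 and 6.23% lower. Of 110 tested on this list, 19 were higher and 1 was lower, or 17.3% higher, with a median log2 fold change of 0.07. Without p38 replicates 2, 4 or 5 the higher count was 12, 9 and 10, without LacZ replicates 1, 2, 3 or 4 it was 12, 12, 9 and 12, and with the signals as deposited it was 10, with 0 lower. By role, 8 of 29 further replication genes (27.6%) and 4 of 24 nucleotide genes (16.7%) were higher, with medians of 0.20 and -0.01. So were 3 of 46 repair genes (6.52%) and 4 of 11 E2F and Rb family genes (36.4%), with medians of 0.06 and 0.34. The repair share lay below that of all tested genes.

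Rpa3, the smallest subunit of the single-strand binding protein, had log2 signals of 9.10, 9.29, 9.05, 9.59 and 9.27 in p38, against 8.60, 8.40, 8.17, 8.55 and 8.77 in LacZ. The groups did not overlap, and Rpa3 was 1.69-fold higher (log2 fold change 0.76 ± 0.13, limma adjusted p = 0.00774). Donson, a factor of the replication fork, was 1.86-fold higher and Dscc1, of an alternative clamp loader, 1.69-fold higher, both without overlap (limma adjusted p = 0.00961 and 0.0118). Chaf1a, the large subunit of CAF-1, was at least 1.57-fold higher (limma adjusted p = 0.0286) and the cohesin acetyltransferase Esco2 at least 1.36-fold (limma adjusted p = 0.0371). Topbp1, Gins4 and Asf1b also passed.

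Among nucleotide genes, Mthfd2, a mitochondrial enzyme of folate metabolism, had log2 signals of 6.96, 7.58, 7.0, 7.97 and 7.79 in p38, against 6.27, 6.72, 5.76, 5.87 and 6.71 in LacZ. Every p38 array was above every LacZ array (2.28-fold, limma adjusted p = 0.0118). Nme1, a nucleoside diphosphate kinase, was 1.83-fold higher (limma adjusted p = 0.0110), the UMP-CMP kinase gene Cmpk1 1.22-fold (limma adjusted p = 0.0181) and Umps, of pyrimidine synthesis, 1.31-fold (limma adjusted p = 0.0207), again without overlap. Of the repair genes, Usp1, a deubiquitinase that acts on PCNA and Fancd2, was 1.43-fold higher (limma adjusted p = 0.0157), Fancb of the Fanconi core complex at least 1.25-fold (limma adjusted p = 0.0303), and Rad18, which ubiquitinates PCNA, at least 1.54-fold (limma adjusted p = 0.0344).

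In the E2F and Rb family, Rbl1, the p107 pocket protein, had log2 signals of 6.68, 7.30, 7.05, 8.26 and 8.26 in p38, against 6.48, 5.93, 6.13, 6.01 and 6.81 in LacZ. It was 2.36-fold higher (limma adjusted p = 0.0179), with p38 replicate 1 below LacZ replicate 5. E2f5 was 1.64-fold higher (limma adjusted p = 0.0163), E2f2 1.44-fold (limma adjusted p = 0.0327) and Tfdp1, a dimerization partner of E2F proteins, 1.26-fold (limma adjusted p = 0.0243). A second dimerization partner, Tfdp2, went the other way, with log2 signals of 8.25, 7.93, 8.30, 7.64 and 7.67 in p38 and 8.61, 8.59, 8.46, 8.67 and 8.54 in LacZ. All its p38 arrays lay below all LacZ arrays, as for 4.74% of all tested genes, at a log2 fold change of -0.61 ± 0.13 (limma adjusted p = 0.0141).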

How the data were processed

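Signals of 5 p38 and 5 LacZ ventricles came from short-oligonucleotide arrays, 1 array per sample, and groups came from the sample titles. Each probe set has 1 deposited intensity per array, which the authors made with GCOS 1.2 per the submitters' processing notes of 9 samples. The scaling target is not stated in the labels, and deposited array medians ran from 60.5 to 88.5 in p38 and from 61.6 to 76.9 in LacZ. Per the file headers, the experiment files give each array's fluidics module and status. No column belonged to other samples.

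The 57 control probe sets were removed, signals were taken as log2(signal + 16) and quantile normalized, and the dimmest 40% of 31042 probe sets by mean (under 5.80, a signal of about 39.6) were left out. Of 31099 probe sets, 20832 named 1 gene in the platform annotation, 436 several and 9831 none; only the first kind was named. Groups were compared, two-sided, with limma 3.58.1 in R 4.3.3 (lmFit, eBayes with an intensity trend), and figures used matplotlib 3.10.9. The number of arrays limits the precision, and the 95% intervals reached a median of 0.28 to either side on the log2 scale. Where a group mean lay under the brightness limit, its arrays under the limit were set to it and the fold is given as at least that size.

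The 50 genes, the gene lists and the tests were chosen with earlier results of these data known, and lists have counts but no test. Values on every array are given for Mcm2 to Mcm7, Pcna, Rrm1, Tyms, Tk1, E2f1, Chek1, and in each role the 3 tested genes with the smallest p and the one with the largest. Of other pathway genes, up to 5 per list and direction with the smallest p have values, and Rpa3, Mthfd2, Rbl1 and Tfdp2 were chosen for array values after these were seen. Promoter windows of RefSeq (GRCr8) were matched by gene identifier. Replicate numbers were not treated as pairs. The fit was tested on simulated data, with 200 of 18625 probe sets changed and noise drawn independently for each probe set. It recovered 40%, 87.2% and 99.4% of simulated log2 changes of 0.5, 1 and 2, and 6.81% of its calls were false. In the data 2979 probe sets passed and many genes moved together on single arrays, so these rates may not hold there. Alternatives comprised pseudocounts, scalings, filters, variance models, array weights, blocks, each array left out and averaging of probe sets. Fits within the Completed and the Started arrays, and the fit of their difference, were added after seeing the data.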

Additional observations from a re-analysis of the deposited data

Results flagged for a closer look

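Single arrays stood far from their group in 2 of the 50 groups of 5 arrays examined for 25 genes, where chance alone gives about 1 in 20. Mcm7 had a log2 signal of 8.82 in p38 replicate 1, while the other p38 arrays ran from 9.13 to 9.25, and the gap was 0.717 of the range. Without that array the log2 fold change of Mcm7 was 0.43 ± 0.10 (limma adjusted p = 0.0112). Gmnn had a log2 signal of 5.62 in LacZ replicate 4, while the other LacZ arrays ran from 6.35 to 6.49, and the gap was 0.848 of the range. Their causes were not tested.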

How the results depend on the processing

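With 1 array left out the higher count among the 42 genes ran from 6 to 23, and among the 110 other pathway genes from 9 to 25 (lower 1 to 2). Over all probe sets the higher count ran from 693 to 2316. Over 24 alternatives, those within 1 fluidics status aside, Prim2, Mcm6, Prim1, Gmnn and Mcm3 passed in every one in which they were tested, and 39 of 42 signs held. The cause of the changes below was not tested, except that fits within 1 fluidics status have fewer arrays and were added after seeing the data. The higher counts, the 42 genes first and the other pathway genes second, were 10 and 10 with the signals as deposited, 11 and 11 with no filter on dim probe sets (47 and 130 tested), 9 and 12 with the dimmest 60% left out (22 and 82 tested), 31 and 35 with Completed arrays only, and 0 and 0 with Started arrays only, where 1 gene of each had an unadjusted p under 0.05. With array weights they were 26 and 28, and over all probe sets 2618 were higher and 2577 lower, against 1601 and 1378 in the reported fit. Completed arrays alone gave 1 of the 42 genes and 8 other genes lower. The other genes' lower count, 1, was 0 as deposited, with Started arrays and with all probe sets averaged, and 3 with array weights and with fluidics status as a block. The median of the 42 genes was 0.08 in Started arrays. The balance over all probe sets moved with scaling, as 956 were higher and 87 lower as deposited (median log2 fold change 0.11, against -0.03 after quantile normalization), where the median of the 42 genes was 0.58, against 1601 higher and 1378 lower in the reported fit. With the replicate block 19 of the 42 were higher, 15 of them among the 17, and 18 other genes were higher and 1 lower; deviations from the group means of same-numbered arrays correlated at r = 0.084, 0.103, 0.044, -0.135 and 0.276, and not every p38 array correlated best with its own number, so the numbers do not show a pairing. Of 639 values for the 25 genes under alternatives, 549 kept sign and call, 30 gained the call, 36 lost it and 24 changed sign. Outside the Started arrays these reached at most 0.14 in size. Mcm10 was 0.13 as deposited, 0.01 with median centring, 0.015 with cyclic loess, 0.0295 with status as a block, 0.14 with probe sets averaged and 0.087 in Started arrays, and -0.100 to 0.028 with 1 array left out. Pole was -0.050 with array weights, -0.29 in Started arrays and -0.062 to 0.118 with 1 array left out. Blm was -0.75 in Started arrays and -0.095 to 0.265 with 1 left out. In Started arrays Mcm2 was -0.16, Mcm5 -0.12, Tk1 -0.15, Chek1 -0.077 and Dnmt1 -0.20, with limma adjusted p from 0.969 to 0.985.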
